A study of Mus musculus with 9 samples.

Results

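The Ly6 genes described here, Ly6a, Ly6c1, Ly6c2 and Ly6e, encode small surface proteins of mouse lymphocytes. They were chosen by name from the deposited count table, with their values in these libraries already known, and make up 4 of its 48663 entries. Expression was measured by RNA sequencing of memory T cells specific for lymphocytic choriomeningitis virus (LCMV), sorted from mouse spleen at day 30 after infection with the Arm strain, with 3 libraries in each of 3 groups. CD4 control cells bound the GP66:I-Ab tetramer and were Ox40-Cre-. CD4 ThpokAD cells bound the same tetramer and were Ox40-Cre+ Thpokfl/fl. CD8 control cells bound the GP33:H-2Db tetramer and were Ox40-Cre-. Every group was infected, so none shows a resting level. Cre was driven by Ox40, a receptor of activated T cells. Thpok is a zinc finger factor encoded by Zbtb7b that is needed for the CD4 helper fate. The labels state neither the age and strain of the mice nor whether the controls carried floxed alleles.

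Ly6 proteins are held in the outer leaf of the membrane by a glycosylphosphatidylinositol (GPI) anchor and share a compact fold of finger-like loops with the urokinase receptor family (uPAR). Antibodies to Ly6C bind the products of the near-identical genes Ly6c1 and Ly6c2 and are used to divide memory T cells, monocytes and some endothelial cells. Ly6a encodes Sca-1, a marker of blood stem cells that activated T cells also carry, and Ly6e encodes a related protein found on thymocytes and many other cells. Both Ly6a and Ly6e are known to be induced by interferon.

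Total counts were 16664474 to 38981516 per library, and levels are given as CPM, the counts of a gene per 1000000 counts of its library after TMM scaling. Zbtb7b stood at 38.5 to 48.9 CPM in CD4 control, 0.698 to 0.875 in CD4 ThpokAD and 18.8 to 24.0 in CD8 control libraries. The 6 T cell markers summed to 4503 to 5646 CPM across the 9 libraries. Mean Cd4 was 1354 CPM in CD4 control, 635 in CD4 ThpokAD and 1.28 in CD8 control. In the same order mean Cd8b1 was 18.3, 56.4 and 2379, and mean Cd8a was 3.245, 49.61 and 813.5. A gene is termed called where edgeR's quasi-likelihood test over 15738 genes gave it a Benjamini-Hochberg adjusted p under 0.05. For the 4 members the calls are descriptive, because these values chose the genes.

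In the sorted CD4 cells that lacked Thpok, Ly6c2 was higher than in CD4 control cells, Ly6a and Ly6c1 were lower, and Ly6e was slightly lower. The fit called 1 of the 4 genes higher and 2 lower in this comparison, where 2.74% of all tested genes were called, 1.81% higher and 0.928% lower. The libraries of the groups did not overlap for 4 of the 4 genes, against 25.7% of tested genes. Between CD8 control and CD4 control, 1 of the 4 genes was called, Ly6c2, which was higher. Of tested genes 11.7% were called there, 5.13% higher and 6.55% lower, and 2 of the 4 members did not overlap, against 33.9%. Between CD4 ThpokAD and CD8 control, 2 of the 4 were called, Ly6a and Ly6c2, both lower. Of tested genes 6.54% were called there, 4.63% higher and 1.91% lower, and 4 of the 4 members did not overlap, against 27.1%. In bulk RNA, fewer cells carrying a transcript and less transcript per cell cannot be told apart.

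**Figure D1:**
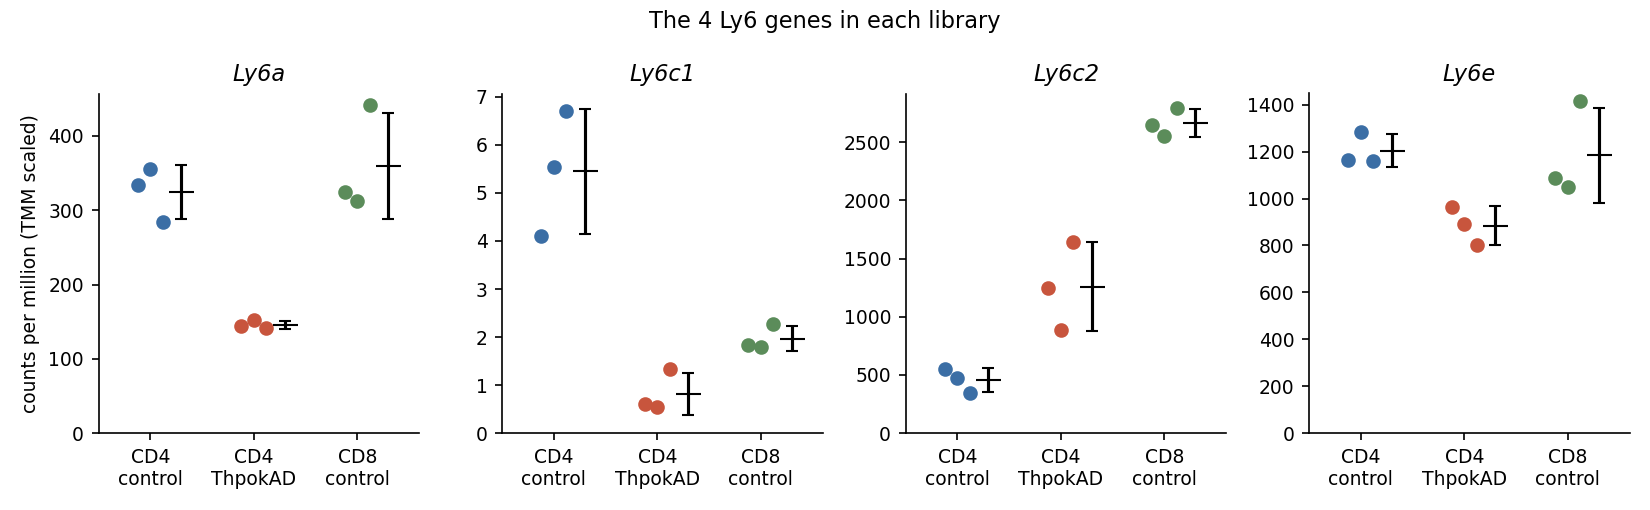
CPM of Ly6a, Ly6c1, Ly6c2 and Ly6e, 1 point per library, with the mean and SD of the 3 libraries of a group beside the points. Each panel has its own axis from 0. Ly6c2 was lowest in CD4 control and highest in CD8 control, and Ly6a, Ly6c1 and Ly6e were lowest in CD4 ThpokAD.

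Ly6c2 was the member with the widest range of levels in CPM. Its CD4 control libraries held 549, 477 and 343 CPM. In CD4 ThpokAD they held 1246, 887 and 1646 CPM, and in CD8 control 2647, 2555 and 2797 CPM. The 3 groups formed separate steps without overlap, and the CD4 ThpokAD libraries were the most spread. Group means were 456 ± 104 CPM in CD4 control, 1260 ± 379.5 in CD4 ThpokAD and 2666 ± 122 in CD8 control (SD, n = 3).

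The log2 difference of Ly6c2 between CD4 ThpokAD and CD4 control was 1.47 (SE 0.233), a 2.76-fold higher level. It was called, but not without CD4 control replicate 2 (log2 1.50) or without CD4 ThpokAD replicate 1 (1.46). Between CD8 control and CD4 control the log2 difference was 2.55 (SE 0.241), or 5.85-fold, and the call held with each library left out. CD4 ThpokAD stood 2.12-fold below CD8 control, a log2 difference of -1.08 (SE 0.230). That call was lost without CD4 ThpokAD replicate 1 (-1.08) or 2 (-0.88), and without CD8 control replicate 1 (-1.10), 2 (-1.13) or 3 (-1.05).

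The summed monocyte and NK cell markers were, like Ly6c2, lowest in CD4 control. Of the 8 monocyte and macrophage markers, 3 were called higher in CD4 ThpokAD against CD4 control, with 8 of 8 positive and a median log2 difference of 1.14. In CD8 control against CD4 control 2 were called higher, with 4 of 8 positive and a median of -0.02. In CD4 ThpokAD against CD8 control, where Ly6c2 was lower, 3 were called higher, with 6 of 8 positive and a median of 1.3. Among all tested genes 1.81%, 5.13% and 4.63% were called higher in these 3 comparisons. The 8 monocyte and macrophage markers summed to 278 to 311 CPM in CD4 control, 575 to 683 in CD4 ThpokAD and 509 to 634 in CD8 control. Much of that sum was Ccr2, a chemokine receptor that memory T cells also carry, at 100 to 128 CPM in CD4 control, 255 to 346 in CD4 ThpokAD and 338 to 389 in CD8 control. Itgam, an integrin of myeloid cells that effector T cells also carry, had the low CD4 control level of Ly6c2, at 0.124 to 2.80, 17.2 to 46.6 and 26.6 to 39.4 CPM in the same order. Csf1r, the growth factor receptor that defines the macrophage lineage, was at 24.2 to 73.1, 91.0 to 133 and 20.3 to 49.8 CPM. Lyz2, a lysozyme of myeloid cells, overlapped between the groups at 43.8 to 72.4, 46.5 to 122 and 37.7 to 171 CPM. On average Csf1r, Cd68, Adgre1 and Cd14 were highest in CD4 ThpokAD and lowest in CD8 control. The 4 NK cell markers summed to 5.20 to 14.8, 57.4 to 100 and 121 to 140 CPM, mostly Klrb1c. Of 3 tested, 2 were called higher in each comparison with CD4 control and 0 in CD4 ThpokAD against CD8 control. Klrb1c, at means of 11.5, 69.1 and 122 CPM, and Klra4, at 0, 2.41 and 5.58, had the group order of Ly6c2. Klra8 had at most 1.95 CPM. Their defining gene Ncr1 was at 0 in 6 of the 9 libraries, with at most 7.75 CPM. Cd8b1 and Cd8a, markers of the CD8 lineage, were at means of 18.3, 56.4 and 2379 CPM and of 3.245, 49.61 and 813.5 CPM. CD4 ThpokAD was 3.08-fold (Cd8b1) and 15.25-fold (Cd8a) above CD4 control. It was 42.1-fold (Cd8b1) and 16.4-fold (Cd8a) below CD8 control. The part of other cells in the Ly6c2 levels was not tested.

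Ly6c1 was far lower than Ly6c2 in every library and, unlike it, was highest in CD4 control cells. Its counts were 66, 97 and 115 in CD4 control, 12, 10 and 25 in CD4 ThpokAD, and 44, 37 and 92 in CD8 control libraries. Scaled, these were 4.10, 5.54 and 6.70 CPM in CD4 control, 0.599, 0.547 and 1.33 in CD4 ThpokAD, and 1.84, 1.79 and 2.27 in CD8 control. CD4 control libraries were the highest and CD4 ThpokAD libraries the lowest, with no overlap between any 2 groups.

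The CD4 ThpokAD mean of Ly6c1, 0.824 ± 0.436 CPM, was 6.57-fold below the CD4 control mean of 5.45 ± 1.30 (SD, n = 3) in the fit, a log2 difference of -2.72 (SE 0.572). The call rests on few reads. It was lost in 8 of 9 fits with a library left out, in which the difference ranged from -3.24 to -2.50, and it was kept without CD8 control replicate 3. The CD8 control mean was 1.97 ± 0.262 CPM. Its differences from CD4 control, -1.47 (SE 0.544), and from CD4 ThpokAD, with CD4 ThpokAD at -1.25 (SE 0.547), were not called.

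Ly6c1 is known to be abundant in endothelial cells, and the 6 endothelial markers were, like it, highest in CD4 control. They summed to 135 to 142 CPM in CD4 control, 72.0 to 101 in CD4 ThpokAD and 56.3 to 82.8 in CD8 control, so the last 2 groups overlapped and did not have the order of Ly6c1. Nearly all of this was Pecam1, an adhesion molecule that T cells also carry, while Tek was at 0 in every library and Cdh5, Egfl7, Emcn and Kdr were at 0 in CD8 control. The endothelial receptor Kdr was at 0 in 7 of 9 libraries, with 9.09 CPM in CD4 control replicate 3 and 0.530 in CD4 ThpokAD replicate 3. These 2 libraries also held the highest Ly6c1 of their groups, and the part of endothelial RNA was not tested. The 9 neutrophil markers summed to 2.80 to 253 CPM in CD4 control, 0.0499 to 21.3 in CD4 ThpokAD and 6.69 to 102 in CD8 control. Of these, Ngp was at 76.8 and Ltf at 63.0 CPM in CD4 control replicate 3. Without CD4 control replicate 3 the log2 difference of Ly6c1 between CD4 ThpokAD and CD4 control was -2.54.

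The contrast between the near-identical genes is plainest in their ratio within a library, which no library scaling can alter. For every 10000 Ly6c2 counts, the CD4 control libraries held 74.7, 116 and 195 Ly6c1 counts. In CD4 ThpokAD there were 4.80, 6.17 and 8.06, and in CD8 control 6.95, 7.02 and 8.11. The CD4 control libraries stood apart from the other 6, which covered a narrow band. On the log2 scale the mean ratio was -6.39 ± 0.694 in CD4 control, -10.7 ± 0.373 in CD4 ThpokAD and -10.4 ± 0.125 in CD8 control (SD, n = 3). The CD4 ThpokAD ratio was 19.2-fold lower than that of CD4 control and the CD8 control ratio 16.2-fold lower. CD4 ThpokAD and CD8 control overlapped, with a log2 difference of -0.24 against a pooled SD of 0.28.

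**Figure D2:**
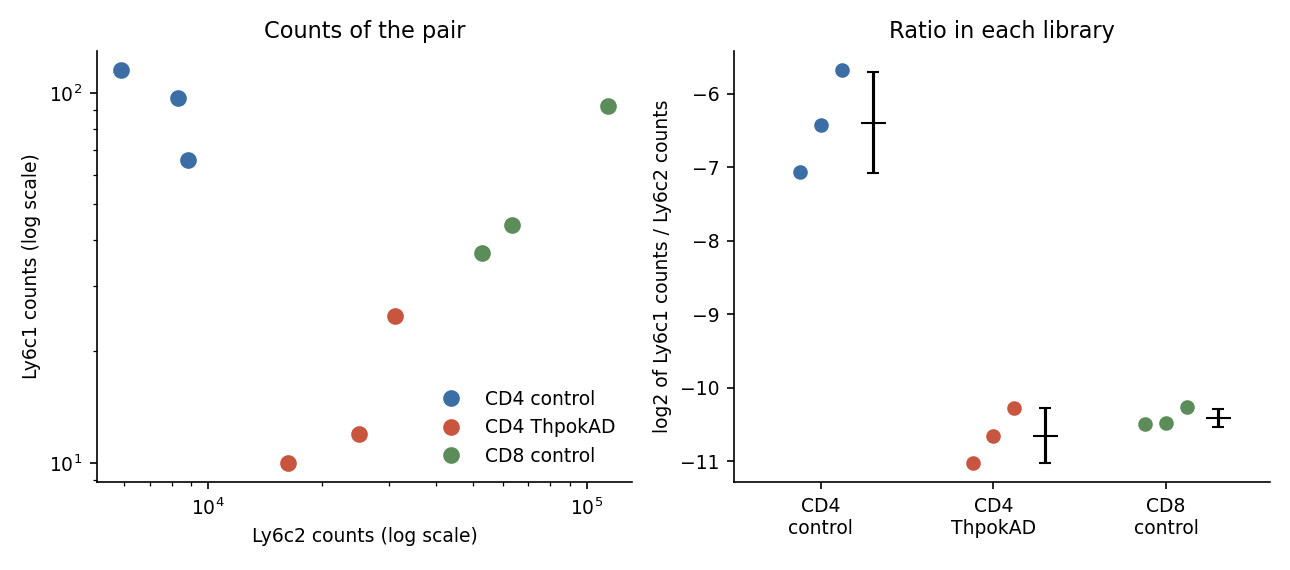
Left, Ly6c1 counts against Ly6c2 counts in each library on log axes. Right, the log2 ratio of the 2 counts in each library, with the mean and SD of each group; the 3 CD4 control libraries lie between -7.06 and -5.68 and the other 6 between -11.02 and -10.27.

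Read assignment bears on these low counts. The principal coding sequences of Ly6c1 and Ly6c2 were identical at 384 of 393 bases (97.7%), and differed at 9. Stretches of 126 bases, the length of the reads, differed between the 2 coding sequences by a median of 1 base, from 0 to 6. Over all annotated transcripts, 95.8% of the 126-base stretches of Ly6c1 and 97.3% of those of Ly6c2 occurred in no other gene, and 73 stretches were common to both. In the 6 CD4 ThpokAD and CD8 control libraries the counts of Ly6c1 had the same order as those of Ly6c2. The share of Ly6c1 counts that came from Ly6c2 transcripts was not tested, so the Ly6c1 levels of these 6 libraries, and the ratio built on them, are uncertain. Ly6a shared 84.4% and Ly6e 77.0% of aligned coding bases with Ly6c2, and 100% of their 126-base stretches were their own.

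The 4 genes lie on chromosome 15 within 156.9 kb. In GENCODE M21 (mm10), Ly6e spans chr15:74955051-74959905 on the plus strand, Ly6a chr15:74994877-74998031, Ly6c1 chr15:75044018-75048830 and Ly6c2 chr15:75108158-75111970, all 3 on the minus strand, and none overlaps another annotated gene. Of 42 other annotated genes that start within 300 kb of a member, 9 were tested. Of these 1 was called, I830127L07Rik (chr15:75131377-75135128, minus strand), the next gene upstream of Ly6c2. It was called higher in CD4 ThpokAD and in CD8 control against CD4 control, where 1.81% and 5.13% of all tested genes were called higher. In CD4 ThpokAD against CD8 control 0 of the 9 were called, against 6.54% of all tested genes. Arc, Jrk, Them6, Lynx1, Ly6d, Ly6k, 2010109I03Rik and Ly6i were not called in any of the 3 comparisons. GENCODE classes I830127L07Rik as a transcribed unprocessed pseudogene, whereas RefSeq lists it under the symbol Ly6a2.

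I830127L07Rik had 0, 0 and 31 counts in CD4 control, 482, 517 and 1011 in CD4 ThpokAD, and 654, 718 and 1739 in CD8 control libraries. It was near 0 in CD4 control cells and stood at 35.3 ± 16.0 CPM in CD4 ThpokAD and 35.0 ± 7.77 in CD8 control (SD, n = 3). The log2 difference between CD4 ThpokAD and CD4 control was 5.85 (SE 1.14, edgeR adjusted p = 0.0306), with no overlap. That call was lost in 7 of 9 fits with a library left out, with values in those 7 from 5.26 to 6.06 and adjusted p up to 0.101 in edgeR, and was kept without CD4 control replicate 3 and without CD8 control replicate 2. Without CD4 control replicate 3, which holds the 31 counts, the CD4 control group is at 0 and the fitted log2 difference becomes 12.6, a value set by the prior count. Against a set floor of 3 counts over the 2 libraries left, the CD4 ThpokAD mean was then 395.5-fold higher, against 57.7-fold in the full fit. That floor carries no spread between libraries, and the size of the difference rests on CD4 control replicate 3. That library also held Ngp at 76.8, Ltf at 63.0 and Kdr at 9.09 CPM. The part of other cells in its 31 counts was not tested. CD8 control differed from CD4 control by 5.84 (SE 1.14, edgeR adjusted p = 0.0114). That call held with each library left out, with the same change of the fitted value to 12.6 without CD4 control replicate 3. The CD8 control mean was 391.9-fold above the same floor, against 57.2-fold in the full fit. CD4 ThpokAD and CD8 control differed by 0.01 (SE 0.873, edgeR adjusted p = 0.997), where Ly6c2 differed by -1.08. None of the 126-base stretches of its transcripts occurred in a transcript of another gene.

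**Figure D3:**
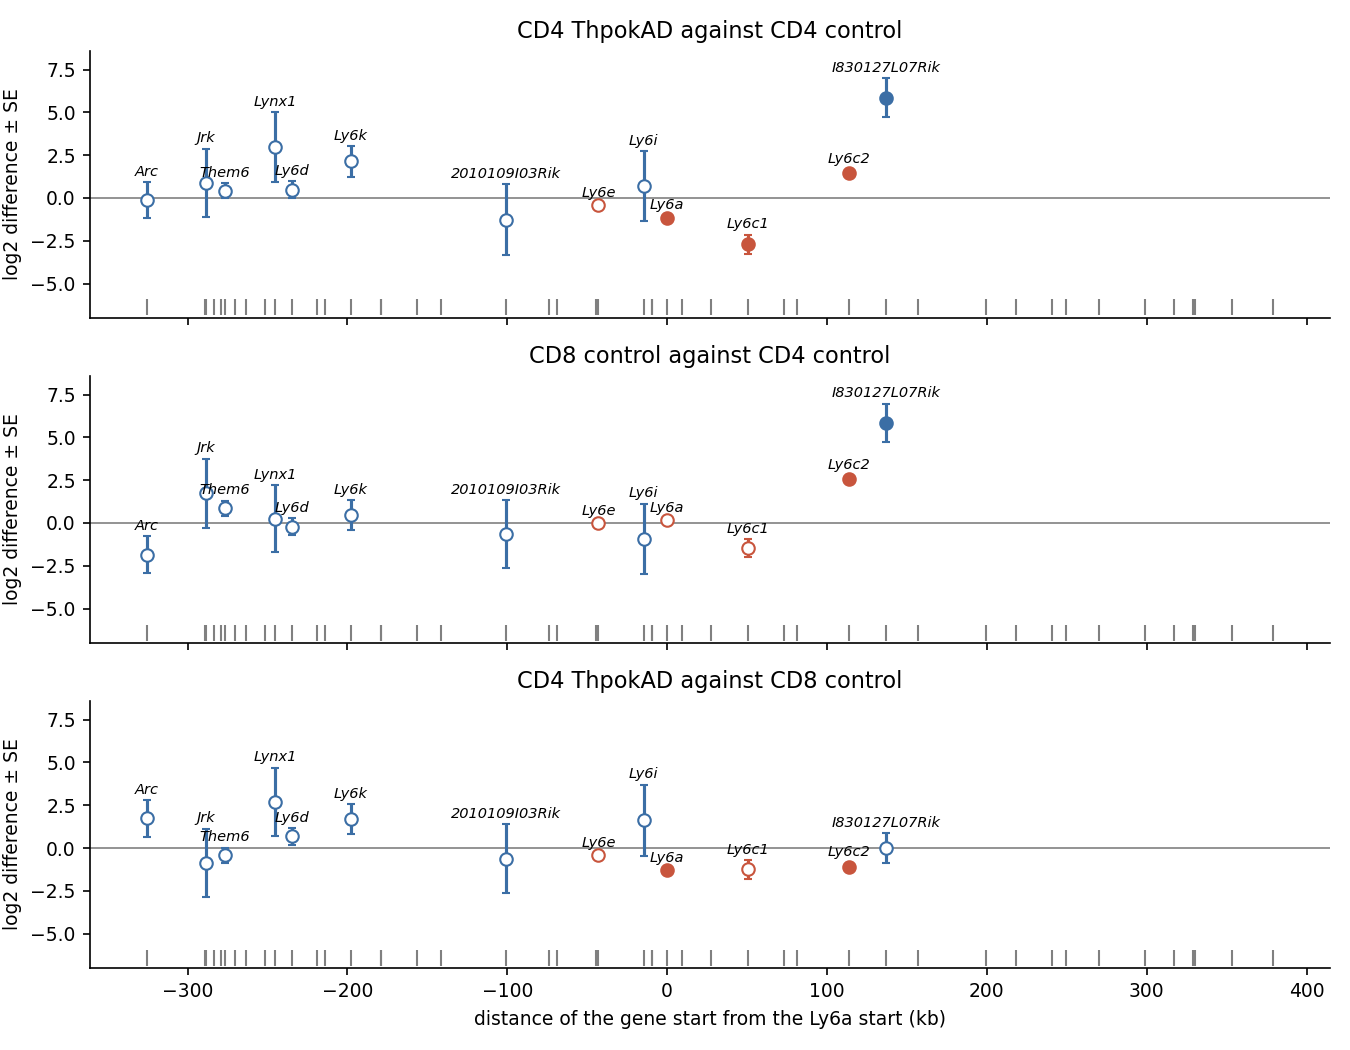
Fitted log2 difference ± SE of the tested genes of the cluster against the distance of their start from the Ly6a start, in the 3 comparisons. Members are red and neighbours blue, filled points were called, and grey ticks mark the start of every annotated gene in the window. I830127L07Rik, at 137.1 kb, lies highest in both comparisons with CD4 control.

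The bases upstream of Ly6c2, I830127L07Rik and Ly6c1 are shown because the first 2 genes were low and the last was high in the same CD4 control libraries. The windows run 5′ to 3′ toward the RefSeq start site in GRCm38.p6, all on the minus strand. Capitals in Ly6c2 mark bases not matched in I830127L07Rik, and capitals in the other 2 mark bases not matched in Ly6c2. Promoter windows of RefSeq matched 2 of the 4 members.
Ly6c2, chr15:75111972-75112221: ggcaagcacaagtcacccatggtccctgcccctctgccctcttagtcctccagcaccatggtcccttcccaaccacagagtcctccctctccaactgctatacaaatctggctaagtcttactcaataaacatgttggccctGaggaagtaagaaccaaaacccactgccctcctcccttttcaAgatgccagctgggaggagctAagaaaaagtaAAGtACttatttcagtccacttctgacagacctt
I830127L07Rik, chr15:75135129-75135373: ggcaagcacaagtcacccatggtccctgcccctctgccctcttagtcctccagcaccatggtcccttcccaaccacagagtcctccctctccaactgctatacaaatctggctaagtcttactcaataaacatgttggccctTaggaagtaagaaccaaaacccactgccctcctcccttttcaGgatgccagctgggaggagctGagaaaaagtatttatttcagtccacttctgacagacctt
Ly6c1, chr15:75048839-75049056: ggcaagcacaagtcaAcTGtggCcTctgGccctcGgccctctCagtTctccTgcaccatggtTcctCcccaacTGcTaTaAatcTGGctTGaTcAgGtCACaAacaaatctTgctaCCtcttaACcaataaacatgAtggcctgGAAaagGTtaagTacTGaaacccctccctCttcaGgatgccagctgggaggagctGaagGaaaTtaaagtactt

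The Ly6c2 and I830127L07Rik windows were identical at 242 of 245 aligned bases (98.8%), with 3 mismatches and 5 further bases of Ly6c2 that I830127L07Rik lacks. Ly6c1 and Ly6c2 were identical at 170 of 210 aligned bases (81.0%). The 6 motifs searched here were sought on both strands in 250 bases upstream of each start. The Ets motif AGGAAGT occurred in Ly6c2 and I830127L07Rik, against 7.69% of 32851 windows, and the Runx motif TGTGGT occurred in both on the other strand, against 14.0%. The matches do not overlap each other, and neither motif was found in the Ly6c1 window. The TATA box letters TATAAA occurred in Ly6c1 and in neither of the others, against 12.4% of windows. The gamma-activated site TTCNNNGAA, the interferon-stimulated response element and the T-box motif AGGTGTGA, held by 7.02%, 2.98% and 1.12% of windows, were found in none of the 3. No binding was measured, and these matches are descriptions.

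**Figure D4:**
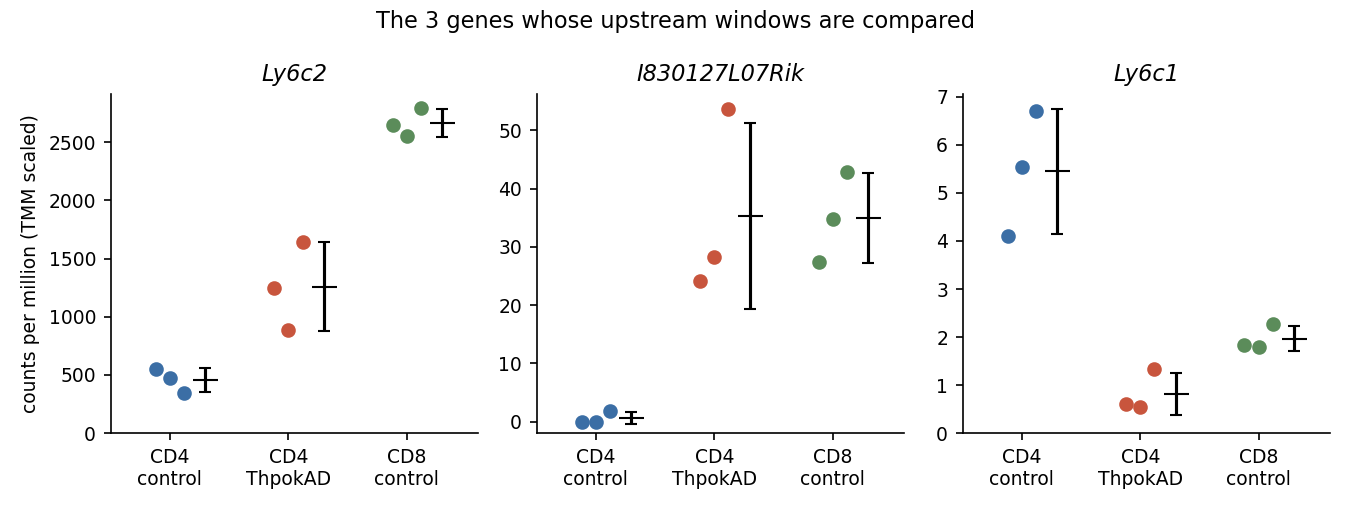
CPM of Ly6c2, I830127L07Rik and Ly6c1 in each library, with mean and SD of 3 libraries per group, each panel on its own axis. I830127L07Rik shares the low CD4 control level of Ly6c2 but overlaps between CD4 ThpokAD and CD8 control, and Ly6c1 is highest in CD4 control.

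Ly6a, which encodes Sca-1, was set apart by its low level in CD4 ThpokAD cells. The CD4 control libraries held 334, 355 and 284 CPM and the CD8 control libraries 325, 313 and 442. The CD4 ThpokAD libraries held 144, 152 and 141 CPM. The controls overlapped with each other, and every CD4 ThpokAD library lay below every control library. Means were 325 ± 36.4, 146 ± 5.62 and 360 ± 71.5 CPM in CD4 control, CD4 ThpokAD and CD8 control (SD, n = 3). CD4 ThpokAD was 2.23-fold below CD4 control, a log2 difference of -1.16 (SE 0.154), and 2.47-fold below CD8 control, -1.31 (SE 0.155). Both calls held in each of 15 alternative fits. CD8 control and CD4 control differed by 0.15 (SE 0.152) and were not called.

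Ly6e was also lowest in CD4 ThpokAD, with a smaller difference. Its libraries held 1165, 1284 and 1161 CPM in CD4 control, 964, 890.0 and 802 in CD4 ThpokAD, and 1089, 1048 and 1417 in CD8 control. The CD4 ThpokAD libraries lay below all 6 control libraries, and the controls overlapped. The log2 difference was -0.44 (SE 0.132) from CD4 control and -0.42 (SE 0.132) from CD8 control, 1.36-fold and 1.34-fold lower, and neither was called. DESeq2 called both, at -0.45 and -0.39, and the first was called by edgeR without CD8 control replicate 3 (-0.45). CD8 control and CD4 control differed by -0.02 (SE 0.132).

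**Figure D5:**
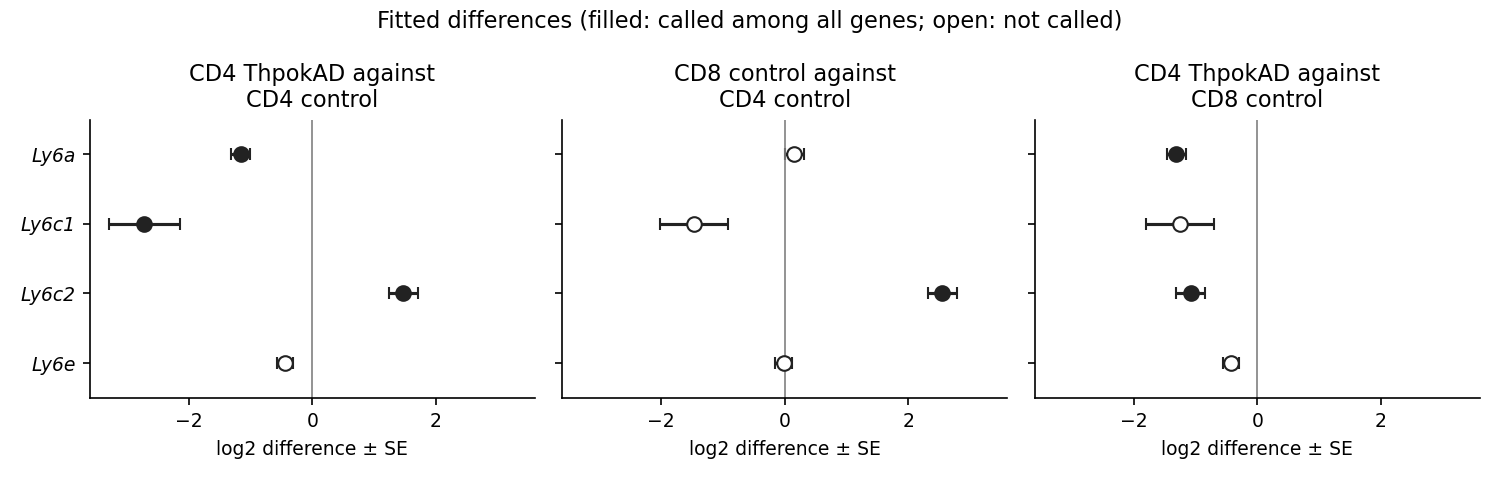
Fitted log2 difference ± SE of the 4 genes in the 3 comparisons, with filled points for genes called among all tested genes. Ly6c2 is above 0 in both comparisons with CD4 control, and the 4 genes lie below 0 in the comparison of CD4 ThpokAD with CD8 control.

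Levels can be compared between the genes only per length. Per kb of merged exons, Ly6e led in CD4 control cells at 318 ± 18.4 CPM, followed by Ly6a at 269 ± 30.2, Ly6c2 at 167 ± 38.1 and Ly6c1 at 3.25 ± 0.777 (SD, n = 3). Ly6e and Ly6a differed there by more than the SD of either. In CD4 ThpokAD cells Ly6c2 led at 460 ± 139 CPM per kb, followed by Ly6e at 234 ± 21.4, Ly6a at 121 ± 4.67 and Ly6c1 at 0.491 ± 0.260. In CD8 control cells Ly6c2 led at 973 ± 44.7 CPM per kb, Ly6e at 313 ± 53.4 and Ly6a at 299 ± 59.3 did not differ beyond their spread, and Ly6c1 was last at 1.17 ± 0.156. The order of Ly6a and Ly6c2 in CD4 control depends on the length. Per kb of the median transcript Ly6c2 stood at 625 ± 143 CPM and Ly6a at 379 ± 42.5 there. With that length, Ly6e at 1434 ± 245 and Ly6a at 420.0 ± 83.4 CPM per kb also differed beyond their spread in CD8 control.

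The makeup of the family differed between the groups. Ly6c2 gave 19.1% to 26.7% of the summed CPM of the 4 genes in CD4 control libraries, 46.0% to 63.5% in CD4 ThpokAD and 60.0% to 65.2% in CD8 control. Ly6e gave the main share in CD4 control, 56.8% to 64.7%, with 31.0% to 46.1% in CD4 ThpokAD and 26.7% to 30.4% in CD8 control. Ly6a gave 15.8% to 16.7% in CD4 control, 5.44% to 7.87% in CD4 ThpokAD and 7.98% to 9.49% in CD8 control. These shares are of CPM and carry the transcript lengths.

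Across the 9 libraries the 4 genes did not move as 1 group. The Pearson correlation of log2 CPM, given as a description of 9 libraries that fall into 3 groups, was 0.914 between Ly6a and Ly6e. It was 0.702 between Ly6a and Ly6c1 and 0.674 between Ly6c1 and Ly6e. Ly6c2 correlated with Ly6c1 at -0.565, with Ly6e at -0.121 and with Ly6a at 0.038.

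Among the 8953 other well-measured genes, those most like Ly6c2 over the 9 libraries included Ctsw, a cathepsin of cytotoxic cells (r = 0.992), the cell cycle inhibitor Cdkn2d (0.984), Ctla2a (0.978) and Ric8a (0.972). Ctsw stood at 167, 419 and 868 CPM in CD4 control, CD4 ThpokAD and CD8 control. Most like Ly6a were the cytokine gene Il16 (0.982), Il7r, the interleukin receptor that sustains memory T cells (0.964), the chemokine receptor Cxcr3 (0.961), Shisa5 (0.955) and Cd55 (0.954). Il7r stood at 1108 CPM in CD4 control, 315 in CD4 ThpokAD and 1243 in CD8 control. Most like Ly6c1 were Arid4a (0.948), Dnajc4 and Tcf7, the transcription factor of long-lived memory cells (0.935 each), Ehd3 (0.927) and Mink1 (0.919), and Tcf7 stood at 1502, 650 and 918 CPM in the 3 groups. Most like Ly6e were Traf3ip2 (0.945), Ppp1r13b (0.938), Scp2 (0.928), Arap1 (0.927) and Hspbp1 (0.926). These genes were selected for their likeness, so no test was made.

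Most other genes of the Ly6 and uPAR family were near 0 in these cells. Of 38 listed, 17 had a count and 7 were tested. I830127L07Rik, which RefSeq lists as Ly6a2, was not among the 38. As described above, it was called higher in both comparisons with CD4 control. Gpihbp1, with 89 counts, and Cd177, with 61, had them all in CD4 control replicate 3 and were not tested. That library also held the highest Ly6c1, Kdr, Ltf and Ngp levels of any library. In CD4 ThpokAD against CD4 control, edgeR, DESeq2 and limma each called 0 of the 7, and 1, Ly6k, had an unadjusted p under 0.05 in edgeR. In each of the other comparisons 1 of the 7 was called, Plaur, which encodes the urokinase receptor. Of all tested genes 2.74% were called in CD4 ThpokAD against CD4 control. The share was 11.7% in CD8 control against CD4 control and 6.54% in CD4 ThpokAD against CD8 control. Plaur stood at 16.8, 15.1 and 14.6 CPM in CD4 control, 12.7, 18.6 and 13.0 in CD4 ThpokAD, and 0, 0.0969 and 0.345 in CD8 control libraries. It fell by 6.52 on the log2 scale in CD8 control against CD4 control (SE 0.847, edgeR adjusted p = 0.00140), and CD4 ThpokAD against CD8 control differed by 6.45 (SE 0.844, edgeR adjusted p = 0.00274). CD4 ThpokAD and CD4 control overlapped (-0.07, SE 0.642, edgeR adjusted p = 0.981).

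The remaining tested relatives were low and not called. Lypd6b had means of 7.62 ± 3.52, 1.02 ± 1.77 and 5.17 ± 4.51 CPM in CD4 control, CD4 ThpokAD and CD8 control, and Ly6d, a surface marker of early B cell progenitors, 3.56 ± 0.510, 4.93 ± 1.08 and 3.06 ± 1.54 (SD, n = 3). Ly6k, Lynx1, Ly6i and Ly6g5b stayed at mean levels of 0.186 to 3.38 CPM. Ly6g, the neutrophil antigen whose gene lies 157.2 kb from Ly6a, had 15 counts over the 9 libraries and was not tested.

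Ly6 proteins reach the surface only after the GPI anchor is built and attached. Of 28 tested enzymes of that pathway, 1 was called in CD4 ThpokAD against CD4 control, which was higher. In CD8 control against CD4 control 4 were called higher and 1 lower, and in CD4 ThpokAD against CD8 control 1 was called, which was lower. The median log2 difference was -0.02, 0.21 and -0.33, against 0.003, 0.01 and -0.006 over all tested genes. The share of all tested genes called was 2.74%, 11.7% and 6.54% in the same order. Pigt, a subunit of the transamidase that attaches the anchor, was the gene called in the first comparison (1.29, SE 0.257, edgeR adjusted p = 0.0345), and it was lost in 8 of 9 fits with a library left out (edgeR adjusted p up to 0.134). The 4 called higher in CD8 control became 0 when CD4 control replicate 1, 2 or 3 was left out. The 1 called lower there, Pgap1, lost its call in 7 of 9 such fits and was kept without CD4 ThpokAD replicate 2 or 3. The 1 called lower in CD4 ThpokAD against CD8 control, Pigg, lost its call in 7 of 9 and was kept without CD4 control replicate 2 or 3. Piga, which takes part in the first step of anchor synthesis, stood at 13.8, 21.6 and 15.7 CPM in the 3 groups and was not called.

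Among other GPI-anchored proteins of lymphocytes, calls went in both directions. Of 12 tested, 2 were called higher and 1 lower in CD4 ThpokAD against CD4 control, 4 higher and 1 lower in CD8 control against CD4 control, and 1 higher and 2 lower in CD4 ThpokAD against CD8 control, with medians of -0.38, 0.01 and -0.28. Over all tested genes the called share was 2.74%, 11.7% and 6.54% in these comparisons. The 4 became 2 when any CD4 control library or CD4 ThpokAD replicate 1 or 3 was left out. The last 2 became 1 without CD4 control replicate 3, CD4 ThpokAD replicate 2 or CD8 control replicate 2 or 3. Cd160, a receptor of cytotoxic lymphocytes, was like Ly6c2 in direction against CD4 control. It had 6.71, 3.09 and 11.1 CPM in CD4 control, 133, 144 and 116 in CD4 ThpokAD, and 100, 93.1 and 119 in CD8 control. Unlike Ly6c2, Cd160 was not called in CD4 ThpokAD against CD8 control (0.33, SE 0.349). It rose by 4.23 on the log2 scale in CD4 ThpokAD against CD4 control (SE 0.405, edgeR adjusted p = 0.00113). Cd48, an adhesion ligand, rose by 1.39 in the same comparison (SE 0.173, edgeR adjusted p = 0.00403). Cd55, a complement regulator, fell by 1.09 (SE 0.168, edgeR adjusted p = 0.0117), and that call was lost without CD4 ThpokAD replicate 1 (-1.0, edgeR adjusted p = 0.0530). Thy1, the abundant GPI-anchored protein of T cells, differed by 0.22 (SE 0.184, edgeR adjusted p = 0.654).

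Because Ly6a and Ly6e are known targets of interferon, the genes of that pathway were read beside them. Ifng stood at 216 CPM in CD4 control, 438 in CD4 ThpokAD and 99.8 in CD8 control. It was higher in CD4 ThpokAD than in CD8 control (2.13, SE 0.299, edgeR adjusted p = 0.00387) and was not called against CD4 control (1.02, SE 0.290, edgeR adjusted p = 0.117). Ifngr1, a chain of its receptor, differed by 0.01 between the CD4 groups ( SE 0.122, edgeR adjusted p = 0.986) and was lower in CD8 control than in CD4 control (-1.45, SE 0.125, edgeR adjusted p = 1.32e-04). Of 14 tested ligand, receptor and signalling genes, 1 was called in CD4 ThpokAD against CD4 control, which was higher. In CD8 control against CD4 control 6 were called, each lower, and in CD4 ThpokAD against CD8 control 4 were called, each higher. Among all tested genes 1.81% were called higher in the first comparison, 6.55% lower in the second and 4.63% higher in the third. The 6 became 3 without CD4 control replicate 2 or 3. The gene called in the first was Irf7, a factor of the interferon response, at 281 CPM in CD4 control, 493 in CD4 ThpokAD and 164 in CD8 control (0.81, SE 0.126, edgeR adjusted p = 0.0120). Its call was lost in 3 of 9 fits with a library left out, without CD4 control replicate 2 (0.83) or 3 (0.76) or CD4 ThpokAD replicate 1 (0.80).

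Of 45 tested interferon-stimulated genes outside the family, 1 was called higher and 1 lower in CD4 ThpokAD against CD4 control, and the median log2 difference was 0.04. The 2 genes were Gbp7 (0.92, SE 0.170, edgeR adjusted p = 0.0253) and Irgm2 (-1.27, SE 0.221, edgeR adjusted p = 0.0197), both GTPases of cell defence, and each call was lost in 5 of 9 fits with a library left out (edgeR adjusted p up to 0.0994 and 0.0805). In CD8 control against CD4 control, 13 were called higher and 4 lower with a median of 0.43. In CD4 ThpokAD against CD8 control, 3 were called higher and 5 lower with a median of -0.44. The 3 became 1 when any CD4 control library or CD8 control replicate 1 or 2 was left out. The share of all tested genes called was 2.74%, 11.7% and 6.54% in the 3 comparisons. Ifi47 and Ifit1bl1 were among those higher in CD8 control, by 2.02 (SE 0.178, edgeR adjusted p = 1.52e-04) and 2.92 (SE 0.247, edgeR adjusted p = 1.21e-04), while Ifi27l2a was lower (-1.49, SE 0.158, edgeR adjusted p = 4.40e-04). Ly6a and Ly6e were at 0.15 and -0.02 in CD8 control against CD4 control, beside the list median of 0.43. In CD4 ThpokAD against CD4 control they were at -1.16 and -0.44, beside a median of 0.04. In CD4 ThpokAD against CD8 control they were at -1.31 and -0.42, beside a median of -0.44 with 10 of 45 positive. The part of interferon in the Ly6a and Ly6e levels was not tested.

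Ly6C and Sca-1 are read on memory T cells beside other markers. Of 23 such genes, 9 were called higher and 4 lower in CD4 ThpokAD against CD4 control, 9 higher and 5 lower in CD8 control against CD4 control, and 3 higher and 4 lower in CD4 ThpokAD against CD8 control. Over all tested genes the called share was 2.74%, 11.7% and 6.54% in these comparisons. The 4 called lower in the first became 2 without CD4 control replicate 1 or 2, CD4 ThpokAD replicate 1 or 3 or CD8 control replicate 2. The fractalkine receptor Cx3cr1 rose from 7.20 CPM in CD4 control to 345 in CD4 ThpokAD (5.58, SE 0.237, edgeR adjusted p = 3.35e-05) and was at 231 in CD8 control. Klrg1, a receptor of effector memory cells, rose by 4.69 in CD4 ThpokAD (SE 0.324, edgeR adjusted p = 2.86e-04), and Selplg, the selectin ligand used with Ly6C to divide CD4 memory cells, by 0.80 (SE 0.105, edgeR adjusted p = 0.00537). Il7r fell by 1.81 (SE 0.140, edgeR adjusted p = 3.81e-04). Id2, a regulator of effector cells, had the same order of groups as Ly6c2, with means of 327, 790.0 and 1421 CPM in CD4 control, CD4 ThpokAD and CD8 control. It was higher in CD4 ThpokAD than in CD4 control (1.27, SE 0.133, edgeR adjusted p = 0.00169) and lower than in CD8 control (-0.85, SE 0.132, edgeR adjusted p = 0.00667).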

How the data were processed

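Low-input libraries were read as paired ends of 126 bp, per the labels' protocols. The build was mm10 and bcl2fastq 2.17, Trimmomatic, STAR, HTSeq and DESeq2 were used, per the submitters' processing notes. The annotation release and the counting's strand setting are not given in the sources used here. Whole-number counts per gene came from the deposited count table, which the authors did not normalize. A second deposited table holds a signal, the same counts scaled by the authors, and served 1 alternative.

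Samples were grouped by title, 3 libraries a group. No label ties replicates to separate animals, so p-values measure only the spread between libraries, which may be technical. The main test was edgeR 4.0.16's quasi-likelihood test (TMM, filterByExpr with minimum count 10 and minimum total 15, all 9 libraries in 1 fit, Benjamini-Hochberg adjustment over 15738 genes). SE is the log2 difference over the square root of F. The 3 comparisons share libraries. The script was tested on simulated data. Alternatives were DESeq2 1.42.0, RLE scaling, no filter, 6 libraries alone, a replicate block, limma 3.58.1 on the log2 of the scaled table plus 0.5, each library left out, and Ly6c1 and Ly6c2 summed.

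The members, the 6 gene lists and the 9 marker lists were chosen with earlier results of these data known. Named genes were the members, relatives with at least 1 CPM in a group, up to 4 called genes per list and comparison with the smallest adjusted p, some chosen by name, tested genes within 300 kb of a member, and the 5 genes most correlated with each member among those with a mean of at least 10 CPM. Of the genes this rule gave, some are not reported here. Coordinates come from GENCODE M21 and upstream windows from RefSeq (GRCm38.p6). Pairwise alignments used Biopython 1.88.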

Additional observations from a re-analysis of the deposited data

How the results depend on the processing

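No called value changed sign in the alternatives run. Ly6a kept its calls in each of 15 alternatives, and Ly6c2 kept its call between CD8 control and CD4 control in each of 16. The Ly6c1 difference between CD4 ThpokAD and CD4 control lost its call without the filter (-2.723), with the 6 libraries alone (-2.712) and with a replicate block (-2.788), and ranged from -3.238 to -2.497 with a library left out. Ly6c2 ranged from 1.225 to 1.663 between CD4 ThpokAD and CD4 control with a library left out, and from -1.323 to -0.884 between CD4 ThpokAD and CD8 control, where the replicate block gave -1.099 without a call. Ly6e was called by DESeq2 between CD4 ThpokAD and CD4 control (-0.453) and CD8 control (-0.393), and the first ranged from -0.518 to -0.378 with a library left out.

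Genes called higher and lower numbered 285 and 146 in CD4 ThpokAD against CD4 control, 808 and 1031 in CD8 control against CD4 control, and 729 and 301 in CD4 ThpokAD against CD8 control. DESeq2 called 752 and 538, 1313 and 1664, and 1417 and 754. The limma fit called 456 and 265 in the first comparison, and the 6 libraries alone gave 246 lower. With a library left out the counts ranged from 131 to 281 and 50 to 196, from 421 to 707 and 637 to 960, and from 438 to 586 and 143 to 222. Same-numbered libraries correlated at -0.045 to 0.062 in their deviations, which cannot show whether they share an animal or a batch. With the replicate block, 86 genes were called lower in CD4 ThpokAD against CD4 control and 183 in CD4 ThpokAD against CD8 control. The cause of these changes was not tested. Depth limits Ly6c1, with 10 to 115 counts a library, and the relatives near 0.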
